A study of Mus musculus with 30 samples.

Results

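The change in the astrocyte response to stroke between 1 and 7 days was followed in 15 of the 30 arrays of the series. They were 5 arrays after middle cerebral artery occlusion (MCAO) and 4 after sham surgery at 1 day, and 3 of each at 7 days. For every gene the stroke effect of a day was the log2 intensity after MCAO minus that after sham surgery, and the quantity of interest was the effect at 7 days minus the effect at 1 day. All mice were young adult males of the line Tg(Aldh1l1-eGFP) OFC789Gsat on a Swiss Webster background, in which the promoter of Aldh1l1, an enzyme of folate metabolism, drives green fluorescent protein in astrocytes. The vessel was occluded for 1 hr and then reopened, green cells were sorted from papain-digested brains, and about 20 ng of RNA was amplified in the Affymetrix 2-cycle protocol. The titles call the arrays biological replicates. Whether each came from a mouse of its own is not stated, so the p-values measure only the spread between these arrays, which may not be that between mice.

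Reactive astrocytes answer injury in the surrounding tissue with programmes that differ in duration. Acute-phase, cytokine and oxidative stress genes are known to be switched on early, while rebuilding of the intermediate filament skeleton and the formation of a glial border accompany the later repair of the tissue. Interleukin-6 family cytokines act through gp130 and STAT3, and the factor NRF2 drives antioxidant genes when cells are oxidatively stressed.

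Gene profiles of arrays in 1 group correlated with a median r between 0.985 and 0.991 in the 4 groups. The days differed in array brightness: the brightest probe set read 31338 to 32733 on the linear scale on the 9 arrays of 1 day and 20222 to 22202 on the 6 arrays of 7 days. Sham arrays of 7 days lay below sham arrays of 1 day by a median of -0.32 on the log2 scale in genes between 10 and 12, and by -0.60 in genes at 13 and over, against 0.02 in genes under 6. Day and array set cannot be told apart. Because the gap depended on the level, this touches not only levels across days but also the size of an effect that runs from dim to bright within a day, and so the difference of effects. After quantile normalisation of all arrays the difference was called lower at 7 days in 51 genes and higher in 10. Astrocyte markers were strong in every group. The summed intensity of 12 markers was 162000 to 171000 after sham surgery and 136000 to 157000 after MCAO at 1 day, and 99600 to 108000 and 110000 to 121000 at 7 days. The sum was thus lower after MCAO at 1 day and higher after MCAO at 7 days, with no overlap at either day, and the part of this in the results below was not tested. Aldh1l1 itself had a stroke effect of -0.31 ± 0.31 (SE) at 1 day and 0.06 ± 0.38 at 7 days, with no call. In sorted bulk RNA, fewer cells of a type and less RNA per cell cannot be told apart.

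Early rises and falls had smaller median effects at 7 days, but few single genes could be called changed between the days. Calls rest on 1 limma model of 15726 genes over all 30 arrays, at a p under 0.05 after Benjamini-Hochberg adjustment over the genes of a contrast. At 1 day 1021 genes rose (6.49% of genes tested) and 970 fell (6.17%). At 7 days 4 rose (0.0254%) and 0 fell, with 412 genes at an unadjusted p under 0.05. The stroke effect itself differed between the days in 56 genes (0.356%), lower at 7 days in 46 (0.293%) and higher in 10 (0.0636%), each by at least 2-fold. Arrays of the other groups in the model, above all those after lipopolysaccharide and saline, scattered more. With the 15 arrays fitted alone, 166 genes were called higher at 7 days (1.06%) and 4 lower, and the difference was called lower in 723 genes (4.6%) and higher in 814 (5.18%). All 56 genes were also called in that fit. Their differences are the same values in both fits by construction and only the variance changed, so the shared direction is not further evidence. With the 1-day arrays paired by the numbers in their descriptions, 22 genes were called lower in the difference and 3 higher, 2 were called at 7 days, and 700 rose and 518 fell at 1 day. Without sham array 3 of 7 days 14 were called lower and 1 higher. Without each of the 15 arrays in turn, 14 of the 56 genes kept their call in every fit, 13 of them lower at 7 days. Those 14 were also called with the 1-day pairing, which was chosen after seeing the data. With the description numbers as a block at both days, 11 of the 56 genes kept their call. Steap4 (adjusted p = 0.0613) and Hmga2 (adjusted p = 0.0537), which are among the 14, lost theirs in that fit.

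Early rises were sorted by what followed. Of the 1021, 46 resolved, which means that the difference was called in the opposite direction and no effect was called at 7 days. The word does not mean that the effect had ended, and in Lcn2 the 95% interval at 7 days was 0.54 to 3.97. A further 2 persisted with a call at both days, and 973 passed neither test. Of the 970 early falls, 7 resolved, 0 persisted and 963 passed neither. C1ql1 alone appeared late, called at 7 days and in the difference but not at 1 day. Matn4 was called at 7 days without a call of the difference, and Hacd4 and Gria4 had a called difference without a call at either day. In the fit of the 15 arrays alone, 690 of 2373 early rises and 722 of 2958 early falls resolved, 115 rises and 2 falls were still called at 7 days in their early direction, and 37 genes appeared late.

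The fate of the genes without a second call can only be given as a description, since they were selected for a large value at 1 day and so tend to read smaller at another time. The 596 early rises of at least 2-fold had a median effect of 1.55 at 1 day and 0.43 at 7 days on the log2 scale, and in 124 of them the later value was at least 0.5 times the early one. The 421 early falls of at least 2-fold had medians of -1.23 and -0.20, and 13 reached that ratio. All 3 MCAO arrays of 7 days lay above all 3 sham arrays in 417 of the 1021 early rises (40.8%, against 9.65% of all genes). All 3 lay below in 213 of the 970 early falls (22%, against 6.68%).

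**Figure D1:**
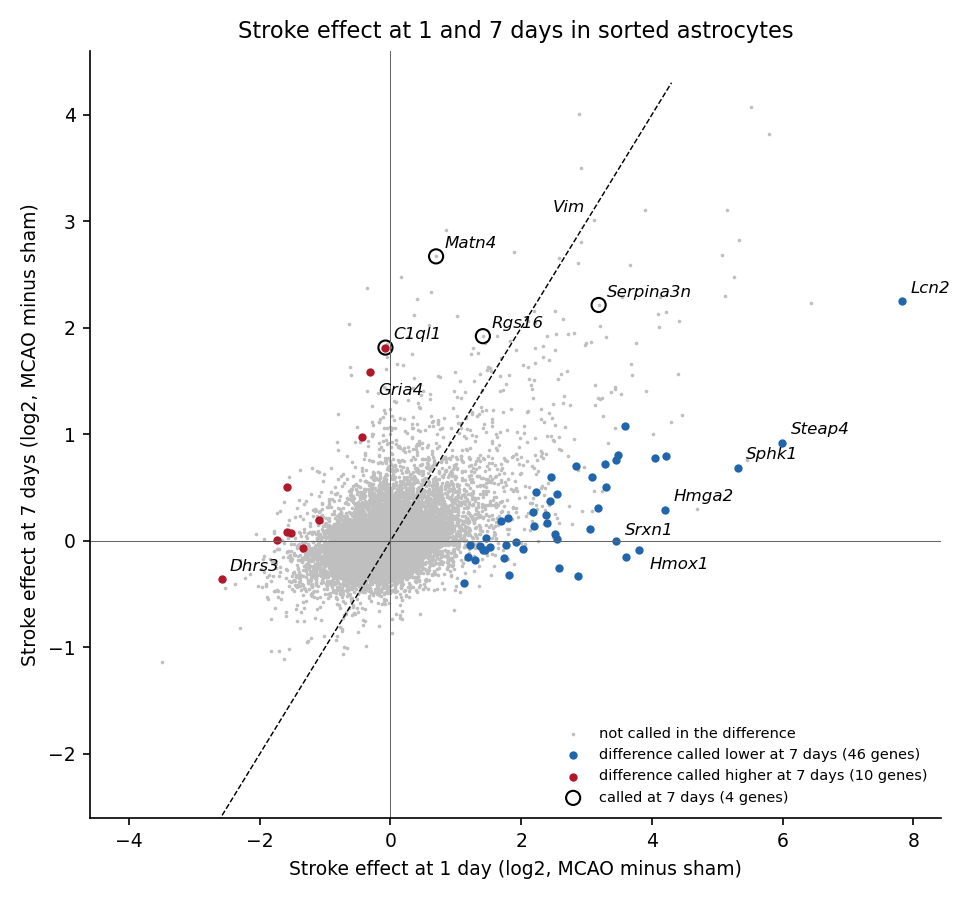
Stroke effect at 1 day (horizontal axis, log2 MCAO minus sham) against the effect at 7 days (vertical axis, log2) for 15726 genes, 1 point per gene, with the dashed line marking equal effects. The 46 genes called lower at 7 days lie to the right below the line, the 10 called higher lie to the left above it, and circles mark the 4 genes called at 7 days.

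Among the 56 called genes, Lcn2 and Steap4 had the largest differences. Lcn2, a secreted protein that binds iron carriers, read 5.09, 4.91, 7.55 and 5.04 on the sham arrays of 1 day and 13.61, 13.42, 13.09, 13.76 and 13.53 on the MCAO arrays, on the log2 scale. At 7 days it read 4.91, 4.81 and 4.81 after sham surgery and 5.75, 7.36 and 8.16 after MCAO. The groups did not overlap at either day, sham array 3 of 1 day stood above the other sham arrays, and the MCAO arrays of 7 days lay between sham and the 1-day peak. The stroke effect went from 7.83 ± 0.69 (SE) to 2.25 ± 0.83, a difference of -5.58 ± 1.08 (adjusted p = 0.0178). The call ended without MCAO array 1 of 7 days or without any 1 of the sham arrays of 7 days (adjusted p up to 0.0945).

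Steap4, a metalloreductase of iron and copper uptake, read 4.95, 5.00, 6.41 and 5.09 after sham surgery at 1 day and between 11.21 and 11.47 on the 5 MCAO arrays. Its 7-day values were 5.39, 5.43 and 5.86 after sham surgery and 6.43, 6.84 and 6.17 after MCAO. The MCAO arrays of 7 days stayed above the sham arrays of that day but far below the level of 1 day. Its effect went from 6.0 ± 0.58 to 0.92 ± 0.70, a difference of -5.07 ± 0.91 (adjusted p = 0.00826), called also without any 1 of the 15 arrays. With the mean of its probe sets in place of the brightest one, the difference was -3.04 (adjusted p = 0.0114). The sham levels of both genes were close to the filter level of log2 5, where intensities carry little signal.

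These 2 resolved genes belong to the pan-reactive list, which the study chose on these samples and which is not independent evidence of a direction. All 13 measured members rose at 1 day. At 7 days 1 was called, Serpina3n, and in the difference 2 were called lower, Lcn2 and Steap4. The median effect of the list was 3.69 at 1 day and 2.14 at 7 days, against -0.053 and -0.0053 for all genes, and in 12 of the 13 members MCAO and sham arrays of 7 days did not overlap (9.65% of all genes had MCAO arrays above sham arrays in that way). With the 15 arrays alone, 6 members were called lower in the difference (4.6% of all genes), adding Timp1, Cp, Cd44 and Hspb1. In that fit 8 were called higher at 7 days (1.06% of all genes).

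RefSeq promoters of the first resolved rises are shown because STAT and AP-1 factors are the known early regulators of this response. Coordinates are of GRCm38.p6, from 250 bases before to 50 after the start, with capitals marking a match on either strand to the STAT motif TTCNNNGAA, the AP-1 motif TGANTCA or an interferon response motif. Lcn2 lies at chr2:32387690-32387989 on the minus strand and Steap4 at chr5:7960222-7960521 on the plus strand.
Lcn2: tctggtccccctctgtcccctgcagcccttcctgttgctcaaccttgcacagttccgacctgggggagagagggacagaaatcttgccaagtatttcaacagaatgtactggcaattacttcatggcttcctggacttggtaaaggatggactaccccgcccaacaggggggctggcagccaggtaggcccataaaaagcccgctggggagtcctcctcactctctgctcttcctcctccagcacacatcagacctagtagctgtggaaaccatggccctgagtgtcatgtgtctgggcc
Steap4: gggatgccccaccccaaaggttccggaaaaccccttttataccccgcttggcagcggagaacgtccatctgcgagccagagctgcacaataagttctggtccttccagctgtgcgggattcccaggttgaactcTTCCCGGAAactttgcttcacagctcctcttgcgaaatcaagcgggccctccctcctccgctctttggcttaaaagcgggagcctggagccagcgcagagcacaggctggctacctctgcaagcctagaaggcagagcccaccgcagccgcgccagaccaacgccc
Steap4 held 1 match to the STAT motif TTCNNNGAA, TTCCCGGAA, at bases -116 to -108 from the start, and Lcn2 held none of the 3 motifs in this window. TTCNNNGAA was present in 6.81% of the 12562 genes tested with a promoter and in 2 of the 36 resolved rises with one (5.56%). The AP-1 motif TGANTCA was present in 5 of those 36 (13.9%) and in 5.56% of the genes tested. For the interferon response motif the values were 1 (2.78%) and 2.82%. Early rises that passed neither test held the STAT and AP-1 motifs in 7.91% each. Over all 27025 promoters, tested or not, the 3 shares were 8.47%, 7.93% and 3.49%. Differences between these shares were not tested.

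The antioxidant genes Hmox1 and Srxn1 were high after MCAO at 1 day and within the sham range at 7 days or close to it. Hmox1, which breaks down heme, read 6.51, 6.38, 6.67 and 6.32 after sham surgery at 1 day and 10.84, 9.85, 10.88, 9.65 and 10.12 after MCAO. After 7 days the values were 6.51, 6.44 and 6.57 after sham surgery and 6.19, 6.46 and 6.62 after MCAO. The groups were far apart at 1 day and overlapped at 7 days. The effect went from 3.80 ± 0.28 to -0.09 ± 0.34, a difference of -3.88 ± 0.44 (adjusted p = 2.86e-05, limma), the smallest adjusted p among the 56 called genes.

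Srxn1, sulfiredoxin, which restores oxidised peroxiredoxins, read 7.80, 7.62, 8.4 and 7.91 after sham surgery at 1 day and 12.07, 10.88, 11.87, 10.46 and 11.64 after MCAO. At 7 days it read 8.72, 8.4 and 8.72 after sham surgery and 8.80, 8.66 and 8.35 after MCAO, and the groups overlapped. The difference of effects was -3.46 ± 0.49 (adjusted p = 0.000474), and -2.20 with the mean of probe sets (adjusted p = 0.000265). Both Hmox1 and Srxn1 were called in every fit that left out 1 array.

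In the list of NRF2 targets and metallothioneins, 7 of 16 measured members rose at 1 day (6.49% of all genes) and 0 fell. The difference was called lower in 2, Hmox1 and Srxn1, and higher in 0. The list's median effect was 0.71 at 1 day and -0.03 at 7 days. In the fit of the 15 arrays alone, 7 members were called lower (4.6% of all genes), adding Txnrd1, Slc7a11, Gpx1, Gclm and Txn1. The added genes serve the thioredoxin and glutathione systems. Txnrd1, thioredoxin reductase, rose by 2.74 at 1 day and had an effect of 0.32 at 7 days. The metallothioneins Mt1, Mt2 and Mt3 had no call at either day, with 7-day effects of 0.22, -0.05 and -0.02.

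Cytokine and lipid signalling genes of the MCAO-type (A2) list were among those that resolved. Sphk1, sphingosine kinase 1, stood at 5.79 ± 0.49 (SD, n = 4) after sham surgery and 11.11 ± 0.75 (n = 5) after MCAO at 1 day. At 7 days it stood at 5.50 ± 0.08 (n = 3) and 6.19 ± 0.45 (n = 3), with no overlap of arrays at either day. The difference was -4.63 ± 1.01 (adjusted p = 0.0351) and was called in 3 of the 15 fits that left out 1 array, those without sham array 3, MCAO array 3 or MCAO array 5 of 1 day. With the 1-day arrays paired by the number in their descriptions, its adjusted p was 0.123. With the mean of probe sets the difference was -2.94 (adjusted p = 0.0114).

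Clcf1, an interleukin-6 family cytokine, went from 4.87 ± 0.30 after sham surgery to 9.09 ± 0.42 after MCAO at 1 day, and stood at 4.91 ± 0.05 and 5.70 ± 0.31 at 7 days. Its difference was -3.42 ± 0.70 (adjusted p = 0.022), and 0.0989 with the pairing. It was called in 6 of the 15 fits that left out 1 array, those without MCAO array 2, 3, 4 or 5 or sham array 3 of 1 day, or without MCAO array 2 of 7 days.

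All 12 measured A2 genes rose at 1 day, 0 were called at 7 days, and the difference was called lower in 2, Sphk1 and Clcf1. This list too was chosen by the study on these samples. Its median effect was 5.10 at 1 day and 2.09 at 7 days, and in 10 of 12 members the arrays of 7 days did not overlap (9.65% of all genes). When the 15 arrays were fitted alone, 12 of 12 were called lower in the difference (4.6% of all genes) and 6 were still called higher at 7 days (1.06% of all genes). Those 6 included Tgm1, a transglutaminase, with effects of 5.79 and 3.82, and Cd109, a surface glycoprotein, with 5.15 and 3.11. Ptx3, a pentraxin of innate immunity, and Slc10a6, a steroid sulfate transporter, had effects of 0.75 and 0.30 at 7 days after rises of 5.46 and 4.68.

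In the interleukin-6 family and STAT3 list, 9 of 15 measured members rose at 1 day (6.49% of all genes) and 1 fell (6.17%), Lifr. The difference was called lower in 1, Clcf1, and the median effect was 1.43 at 1 day and 0.51 at 7 days. Among ligands and receptors, Il6 had effects of 4.46 and 1.18, Il11 of 1.53 and -0.33, and Osmr of 3.68 and 1.66. Socs3, a feedback inhibitor of gp130 signalling, had effects of 2.39 and 1.92. With the 15 arrays alone, Clcf1, Il6 and Il11 were called lower in the difference, Socs3, Bcl3 and Il6st were called higher at 7 days, and Cntfr, the receptor of ciliary neurotrophic factor, was called lower there, with effects of -0.38 and -0.99.

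**Figure D2:**
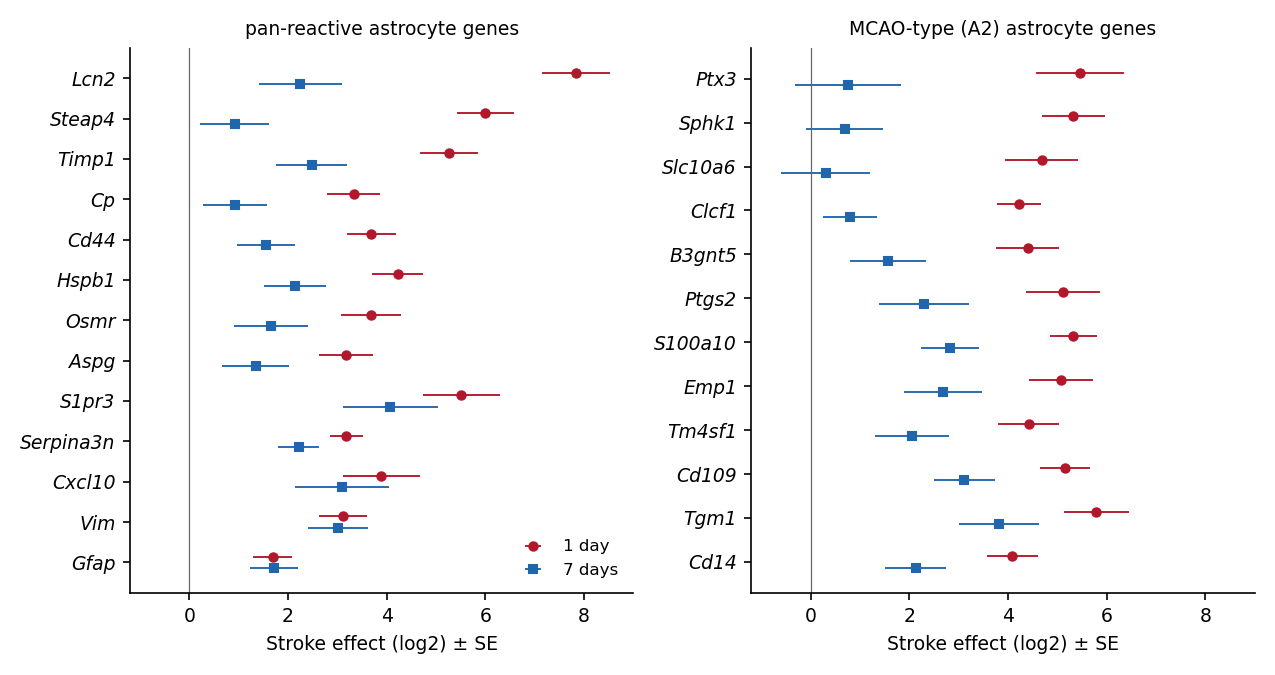
Stroke effect (horizontal axis, log2 MCAO minus sham, bars 1 SE) at 1 day (red circles) and 7 days (blue squares) for the 13 pan-reactive and 12 A2 genes, ordered by the difference. The 2 symbols lie together for Gfap and Vim and furthest apart for Lcn2 and Steap4.

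Hmga2 and Lrg1 were further resolved rises. Hmga2, an architectural chromatin protein of growing cells, read 4.81 to 5.04 after sham surgery at 1 day and 10.26, 8.57, 9.22, 9.05 and 8.69 after MCAO. Values at 7 days were 5.04, 4.95 and 5.09 after sham surgery and 5.29, 5.36 and 5.32 after MCAO. The 7-day groups did not overlap but lay within a narrow range near the filter level. The difference was -3.91 ± 0.67 (adjusted p = 0.00506), and -2.52 with the mean of probe sets (adjusted p = 0.00833). Lrg1, a secreted leucine-rich glycoprotein of the acute phase, went from 4.61 ± 0.42 to 8.21 ± 0.65 at 1 day and stood at 4.48 ± 0.16 and 4.32 ± 0.07 at 7 days. Its difference was -3.75 ± 0.52 (adjusted p = 0.000474). Both sham means and the 7-day MCAO mean of Lrg1 lay below the filter level, so the size of this difference is uncertain, and with values under log2 5 raised to 5 it was -3.15 (adjusted p = 0.000613).

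Fosl1, a subunit of AP-1, had effects of 3.28 ± 0.30 at 1 day and 0.72 ± 0.37 at 7 days (difference -2.56 ± 0.48, adjusted p = 0.0131). That call ended without MCAO array 3 or sham array 3 of 7 days (adjusted p up to 0.0565), and the paired value was 0.051. With the mean of probe sets the difference was -1.53 (adjusted p = 0.0525). In the list of AP-1 and immediate early genes Fosl1 was the 1 member of 16 called lower, and the list's median effect was 0.34 at 1 day and 0.67 at 7 days. Ier3 had effects of 2.58 and 2.66, Junb of 0.73 and 1.11, and Egr2 of 1.40 and 1.41. MCAO arrays lay above sham arrays without overlap in 14 of the 16 genes at 7 days (9.65% of all genes) and in 4 of the 16 at 1 day (12.1% of all genes). Groups of 3 and 3 arrays stand apart by chance more easily than groups of 5 and 4, so these 2 counts cannot be compared directly. In Junb, Ier2 and Arc the overlap at 1 day came from sham array 3 alone.

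Adam12, a membrane metalloproteinase, had effects of 3.08 ± 0.26 at 1 day and 0.60 ± 0.32 at 7 days (difference -2.48 ± 0.41, adjusted p = 0.00374, and -1.51 with the mean of probe sets, adjusted p = 0.0114). Plaur, the urokinase receptor, had effects of 1.82 ± 0.22 and -0.32 ± 0.26 (difference -2.14 ± 0.34, adjusted p = 0.00252). Both were the members called lower among 19 metalloproteinase, plasminogen system and inhibitor genes. Of the 19, 7 rose and 2 fell at 1 day (6.49% and 6.17% of all genes). Hmga2, Lrg1, Adam12 and Plaur were called in all 15 fits that left out 1 array. The other direction was seen in Mmp2, a gelatinase, with effects of 0.19 and 1.65, which was called higher in the difference with the 15 arrays alone. Timp1, a metalloproteinase inhibitor, had effects of 5.26 and 2.48.

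The 7 resolved falls were of varied function. Dhrs3, a retinal reductase, read 11.09, 10.68, 10.41 and 10.65 after sham surgery at 1 day and 7.81, 8.0, 8.30, 7.84 and 8.68 after MCAO. Its 7-day values were 10.43, 10.38 and 10.20 after sham surgery and 10.30, 9.77 and 9.86 after MCAO. The groups did not overlap at 1 day and overlapped at 7 days. The effect went from -2.58 ± 0.28 to -0.36 ± 0.34, a difference of 2.23 ± 0.43 (adjusted p = 0.018).

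Hhatl, a relative of the hedgehog acyltransferase, had effects of -1.73 ± 0.23 at 1 day and 0.01 ± 0.27 at 7 days (adjusted p of the difference 0.022). Farp2 had effects of -1.58 ± 0.26 and 0.51 ± 0.31 (adjusted p 0.0167), and St8sia1, which synthesises gangliosides, had -1.58 ± 0.21 and 0.08 ± 0.26 (adjusted p 0.0189). Fbln1, a matrix fibulin that was also on the list of fibroblast markers, had -1.52 ± 0.23 and 0.08 ± 0.27 (adjusted p 0.0414), and Tfdp2, a partner of cell cycle transcription factors, had -1.10 ± 0.17 and 0.19 ± 0.21 (adjusted p 0.0252). Pxmp2, a peroxisomal membrane channel, was the seventh, with -1.34 and -0.07. In all 6 genes named before it the MCAO and sham arrays of 1 day did not overlap.

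Calls of resolved falls were fragile. Each of these 6 lost its call without sham array 2 or sham array 3 of 7 days. The paired adjusted p was 0.0549 for Dhrs3 and Farp2, 0.051 for St8sia1 and 0.113 for Fbln1, and it kept Hhatl and Tfdp2. With the mean of probe sets the difference was 0.57 in Tfdp2 (adjusted p = 0.21), 0.95 in Fbln1 (adjusted p = 0.242) and 0.66 in St8sia1 (adjusted p = 0.151), against 1.29, 1.59 and 1.66 with the brightest one. Fbln1 was also lost with robust trended variance (adjusted p = 0.0516). The probe set of Farp2 is of a kind that can match several transcripts, and without such probe sets Farp2 had effects of -0.86 and 0.10 and a difference of 0.95 (adjusted p = 0.309), against 2.09. The count of resolved falls was 0 without sham array 2, sham array 3 or MCAO array 3 of 7 days.

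Lists of mature astrocyte genes were lower in value at 1 day and near sham level at 7 days. Of 21 astrocyte identity genes 6 fell at 1 day (6.17% of all genes) and 0 rose, and 0 were called in the difference. The median effect was -0.48 at 1 day and 0.04 at 7 days, the latter -0.012 after quantile normalisation. In the fit of the 15 arrays alone, 9 of the 21 were called higher in the difference (5.18% of all genes). Among them were Lhx2 and Hes5, transcription factors of glial progenitors, with effects of -1.28 and -0.12 and of -1.14 and -0.28. Of 13 genes of water, potassium and gap junction transport at the endfeet, 4 fell at 1 day, with medians of -0.41 and 0.13. Of 20 receptors, 7 fell and 1 rose (6.17% and 6.49% of all genes), with medians of -0.52 and -0.10. With the 15 arrays alone 8 receptors were called higher in the difference (5.18% of all genes). The 1 that rose, S1pr3, is also on the pan-reactive list. Its effect at 7 days, 4.08, was the largest of all genes tested, without a call. At 7 days S1pr3 read 10.8, 12.2 and 11.4 after MCAO and 7.6, 7.1 and 7.5 after sham surgery. Grin2c, a glutamate receptor subunit, had effects of -1.58 and -0.10, and Fzd2, a WNT receptor, of -1.72 and -0.47.

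Of 13 genes of glutamate and GABA uptake and metabolism, 5 fell at 1 day (6.17% of all genes) and 0 rose. The medians were -0.52 and -0.07. Of 19 synapse-forming and phagocytic genes, 6 fell and 2 rose (6.49% of all genes), with medians of -0.46 and 0.07. Those 6 included the engulfment receptors Mertk (-1.19 and -0.29) and Megf10 (-0.89 and -0.27) and the bridging ligands Gas6 (-1.24 and -0.13) and Mfge8 (-1.08 and -0.14). None of the members of these lists was called in the difference by the model of 30 arrays.

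Sterol and fatty acid synthesis genes had negative median effects at both days, with no call at 7 days. Of 24 measured members 6 fell at 1 day (6.17% of all genes) and 0 rose. At 7 days and in the difference 0 were called, and the median effect was -0.69 at 1 day and -0.35 at 7 days. All 3 MCAO arrays of 7 days lay below all sham arrays in 12 of the 24 (6.68% of all genes). Mvd, of the mevalonate pathway, had effects of -1.60 and -0.67, and Fdft1, which makes squalene, of -0.64 and -0.64.

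Serpina3n and Rgs16 were the 2 early rises called again at 7 days. Serpina3n, an inhibitor of serine proteases, read 10.08, 9.99, 11.30 and 10.15 after sham surgery at 1 day and 13.48 to 13.64 on the 5 MCAO arrays. At 7 days it read 9.24, 9.27 and 9.32 after sham surgery and 10.94, 11.84 and 11.69 after MCAO. The groups did not overlap at either day. Its effect was 3.18 ± 0.33 at 1 day and 2.21 ± 0.41 at 7 days (adjusted p at 7 days 0.0398), with a difference of -0.97 (95% interval -2.05 to 0.11).

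Rgs16, which shortens G protein signalling, read 7.05, 6.92, 7.42 and 7.13 after sham surgery at 1 day and 8.73, 8.62, 8.47, 8.48 and 8.43 after MCAO. The arrays of 7 days read 7.33, 7.34 and 7.36 after sham surgery and 8.78, 9.76 and 9.26 after MCAO, again without overlap. Its effect was 1.41 ± 0.29 at 1 day and 1.92 ± 0.35 at 7 days (adjusted p 0.0398). The 7-day calls of both genes were lost in 10 of the 15 fits that left out 1 array, among them each fit without a sham array of 7 days, and the paired adjusted p was 0.0867 for both. Both calls also ended with median centring (adjusted p = 0.0599) and with no filter on low values (adjusted p = 0.0558). With the mean of probe sets the 7-day effect of Rgs16 was 1.17 (adjusted p = 0.186).

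Promoters of these 2 are shown beside those of the resolved rises. Serpina3n lies at chr12:104406458-104406757 and Rgs16 at chr1:153740103-153740402, both on the plus strand.
Serpina3n: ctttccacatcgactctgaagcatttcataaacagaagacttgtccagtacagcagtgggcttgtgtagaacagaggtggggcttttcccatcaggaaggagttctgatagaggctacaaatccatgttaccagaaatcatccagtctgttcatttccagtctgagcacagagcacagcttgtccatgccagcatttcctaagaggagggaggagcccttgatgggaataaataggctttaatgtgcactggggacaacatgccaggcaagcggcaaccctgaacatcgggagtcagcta
Rgs16: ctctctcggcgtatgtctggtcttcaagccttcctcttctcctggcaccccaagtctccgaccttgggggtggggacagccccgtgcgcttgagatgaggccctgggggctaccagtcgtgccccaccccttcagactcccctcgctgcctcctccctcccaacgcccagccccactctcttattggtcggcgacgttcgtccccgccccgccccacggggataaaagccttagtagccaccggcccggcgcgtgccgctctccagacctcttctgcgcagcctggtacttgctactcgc
None of the 3 motifs occurred in either window.

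The intermediate filament genes Vim and Gfap had effects of like size at both days. Vim read 9.71, 9.77, 11.76 and 9.94 after sham surgery at 1 day and 13.23, 13.42, 13.07, 13.78 and 13.56 after MCAO. Values at 7 days were 10.55, 9.45 and 10.01 after sham surgery and 12.76 to 13.29 after MCAO. The groups were apart at both days, and sham array 3 of 1 day was again the highest sham array. The effect was 3.12 ± 0.49 and 3.01 ± 0.60 (adjusted p at 7 days 0.0536), with a difference of -0.11 (95% interval -1.70 to 1.49).

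Gfap read 12.03, 12.60, 13.05 and 12.12 after sham surgery at 1 day and 14.23, 14.13, 13.92, 14.21 and 14.19 after MCAO. Its 7-day values were 11.15, 11.41 and 10.84 after sham surgery and 12.35, 13.23 and 12.97 after MCAO. Both groups were dimmer at 7 days and did not overlap within a day. The effect was 1.69 ± 0.40 and 1.72 ± 0.49 (adjusted p at 7 days 0.417), with a difference of 0.03 (95% interval -1.27 to 1.33). The Gfap probe set is of the kind that can match several transcripts. Without such probe sets the effects of Gfap were 2.73 and 2.45 and the difference -0.28, and with the mean of probe sets they were 2.45 and 2.18 and the difference -0.27. The difference of Vim also turned sign, to 0.02 with quantile normalisation and 0.15 with the mean of probe sets. The intervals of Vim and Gfap do not show that the effects were equal. When the 15 arrays were fitted alone, both genes were called at 7 days (adjusted p 0.00295 for Vim and 0.00372 for Gfap).

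Other cytoskeletal genes had smaller values at 7 days. Of 24 intermediate filament, actin and tubulin genes 12 rose at 1 day (6.49% of all genes) and 0 fell. The medians were 1.13 and 0.56, with no call in the difference. With the 15 arrays alone 6 were called lower (4.6% of all genes) and 1 higher (5.18%), Tubb2b. The lower ones included Nes, nestin (1.96 and 0.72), and Tubb6, a beta-tubulin (3.53 and 1.37). Of 18 annexins, S100 proteins and galectins 10 rose at 1 day, with medians of 1.42 and 0.65. With the 15 arrays alone 7 of these 18 were called higher at 7 days (1.06% of all genes). Lgals1 had effects of 2.65 and 2.09 and S100a4 of 1.81 and 1.55.

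**Figure D3:**
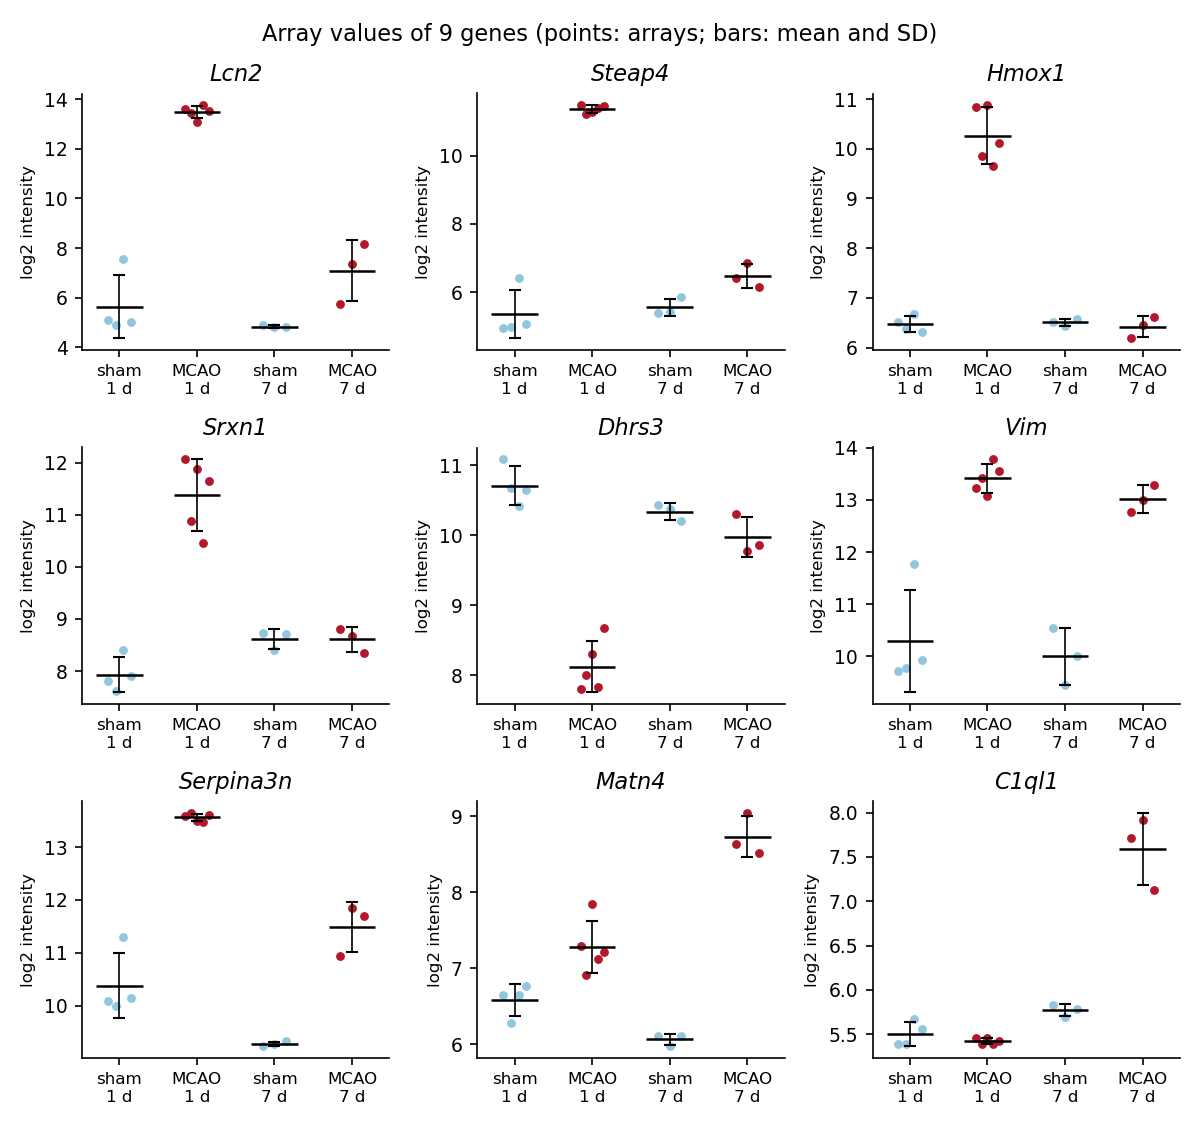
Log2 intensity (vertical axes) of 9 genes in the 4 groups, with 1 point per array and bars for the mean and SD (4 sham and 5 MCAO arrays at 1 day, 3 and 3 at 7 days). Lcn2 and Steap4 lie between sham level and the 1-day peak at 7 days, Hmox1, Srxn1 and Dhrs3 overlap it, Vim and Serpina3n stay above it, and C1ql1 is high after MCAO at 7 days only among the 4 groups.

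Interferon-stimulated genes are switched on by antiviral and inflammatory signals. Of 28 measured members 9 rose at 1 day (6.49% of all genes) and 0 fell. None was called at 7 days or in the difference, and the medians were 1.14 at 1 day and 0.91 at 7 days. MCAO arrays lay above sham arrays without overlap in 21 of 28 at 7 days (9.65% of all genes). In the fit of the 15 arrays alone, 11 were called higher at 7 days (1.06% of all genes). The difference was called lower in 5 (4.6% of all genes), Gbp2, Gbp3, Rsad2, Igtp and Irgm1. It was called higher in 1 (5.18%), the transcription factor Irf1, with effects of 0.73 and 1.55. Of 12 genes of MHC class I antigen presentation 1 rose at 1 day (6.49% of all genes), Psmb8, with effects of 1.52 and 1.62. The medians of that list were 0.74 and 0.47. Of 9 LPS-type (A1) genes, chosen by the study on its samples, 5 rose at 1 day, 0 were called in the difference, and the medians were 1.69 and 1.59.

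**Figure D4:**
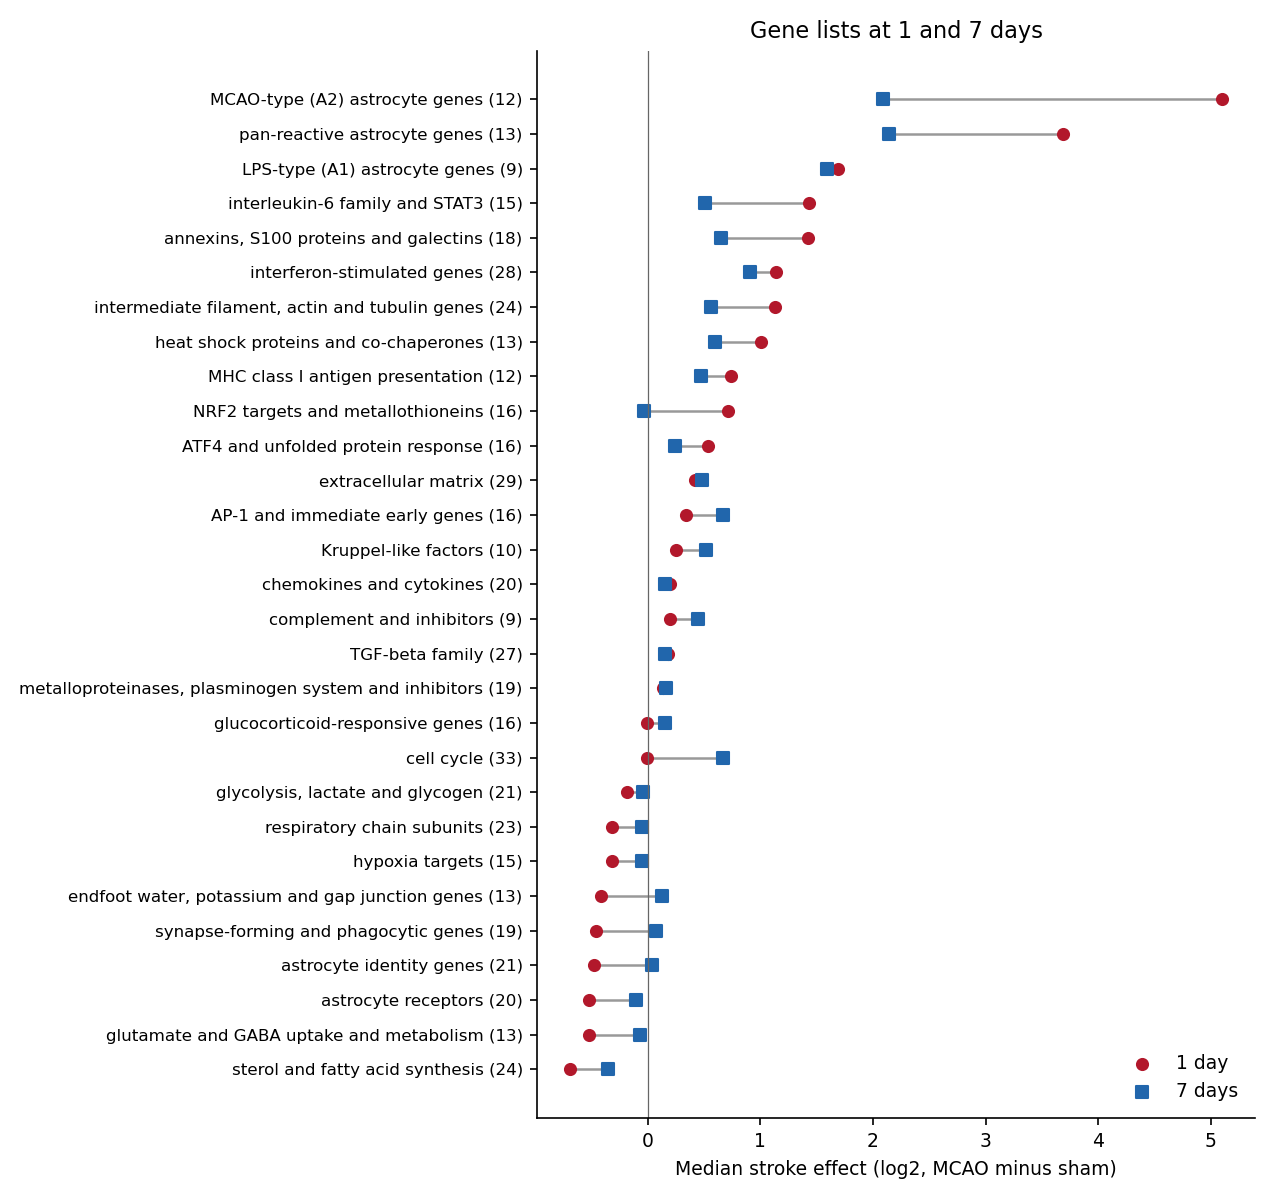
Median stroke effect (horizontal axis, log2 MCAO minus sham) of 29 gene lists at 1 day (red circles) and 7 days (blue squares), with the number of measured members in brackets. The A2 list moves most, from 5.10 to 2.09, and the cell cycle list goes from -0.01 to 0.67.

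C1ql1 was the gene that appeared late. This secreted relative of complement C1q, which is known from synapses and from oligodendrocyte precursors, read 5.39, 5.39, 5.67 and 5.55 after sham surgery at 1 day and 5.39 to 5.46 after MCAO. After 7 days the values were 5.83, 5.70 and 5.78 after sham surgery and 7.71, 7.91 and 7.13 after MCAO. It was low in 3 of the 4 groups and high in all 3 MCAO arrays of 7 days. Its effect at 7 days was 1.81 ± 0.21 (adjusted p = 6.21e-05) and the difference was 1.89 ± 0.27 (adjusted p = 0.000578), both called without any 1 of the 15 arrays.

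Matn4, matrilin 4 of the extracellular matrix, read 6.64, 6.29, 6.64 and 6.77 after sham surgery at 1 day and 7.29, 6.92, 7.85, 7.13 and 7.22 after MCAO. The arrays of 7 days read 6.11, 5.98 and 6.11 after sham surgery and 8.64, 9.04 and 8.52 after MCAO. The groups were apart at both days, by more at 7 days. The effect at 7 days was 2.67 ± 0.38 (adjusted p = 0.00137, called without any 1 array), and the difference of 1.97 ± 0.49 had an adjusted p of 0.09.

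Gria4, an AMPA receptor subunit, read 5.93 to 6.67 after MCAO at 1 day and 8.64, 7.76 and 7.94 at 7 days, against 6.21 to 7.05 and 6.36 to 6.66 after sham surgery. Its difference was 1.89 ± 0.42 (adjusted p = 0.038, and 0.0843 with the pairing). With the mean of probe sets its 7-day effect was 0.56 and the difference 0.71 (adjusted p = 0.244), against 1.58 and 1.89. Hacd4, an enzyme of fatty acid elongation, had effects of -0.43 ± 0.20 and 0.98 ± 0.25 (difference 1.41 ± 0.32, adjusted p = 0.0428, and 0.0863 with the pairing). The calls of Gria4 and Hacd4 held in 4 and 2 of the 15 fits that left out 1 array, and were lost without any 1 of the sham arrays of 7 days.

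C1ql1 is 1 of 10 measured markers of oligodendrocyte precursors, and values of this list moved with it. The median effect of the 10 was 0.03 at 1 day and 0.82 at 7 days. Their summed intensity was 5010 to 6380 after sham surgery and 4670 to 6780 after MCAO at 1 day, and 5120 to 6290 after sham surgery and 8460 to 10200 after MCAO at 7 days. The sum was thus higher on all 3 MCAO arrays of 7 days than on any of the other 12 arrays. Pdgfra, the platelet-derived growth factor receptor of these cells and of fibroblasts, had effects of 0.63 and 2.34, Lhfpl3 of 0.16 and 2.48, and Cspg4, the proteoglycan NG2, of -0.28 and 0.75, while Olig2 had 0.48 and 0.27. In the difference 1 of the 10 was called, C1ql1, and 5 were called higher with the 15 arrays alone (5.18% of all genes). The part of these cells in the late values of C1ql1, Matn4 and Gria4 was not tested.

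Pericyte and smooth muscle markers also summed higher on all 3 MCAO arrays of 7 days (4170 to 4890) than on the sham arrays of that day (3410 to 3870), with a median effect of -0.14 at 1 day and 0.47 at 7 days. Cspg4 is on both this list and the precursor list, and Pdgfra on both the precursor and the fibroblast list, so these sums are not separate observations. Fibroblast markers summed to 2370 to 4400 after sham surgery and 3450 to 7770 after MCAO at 7 days, with overlapping ranges. Endothelial markers summed to 2140 to 13500 on the arrays of 1 day and 954 to 1450 on those of 7 days, neuronal markers to 5620 to 17900 and 5420 to 6130, and oligodendrocyte markers to 14100 to 45600 and 12000 to 16000. Microglia and macrophage markers summed to 1550 to 3580 over all 4 groups. Neutrophil and monocyte markers summed to 506 to 559 after sham surgery and 592 to 649 after MCAO at 1 day. At 7 days their sums were 525 to 557 after sham surgery and 552 to 615 after MCAO, with overlapping ranges.

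**Figure D5:**
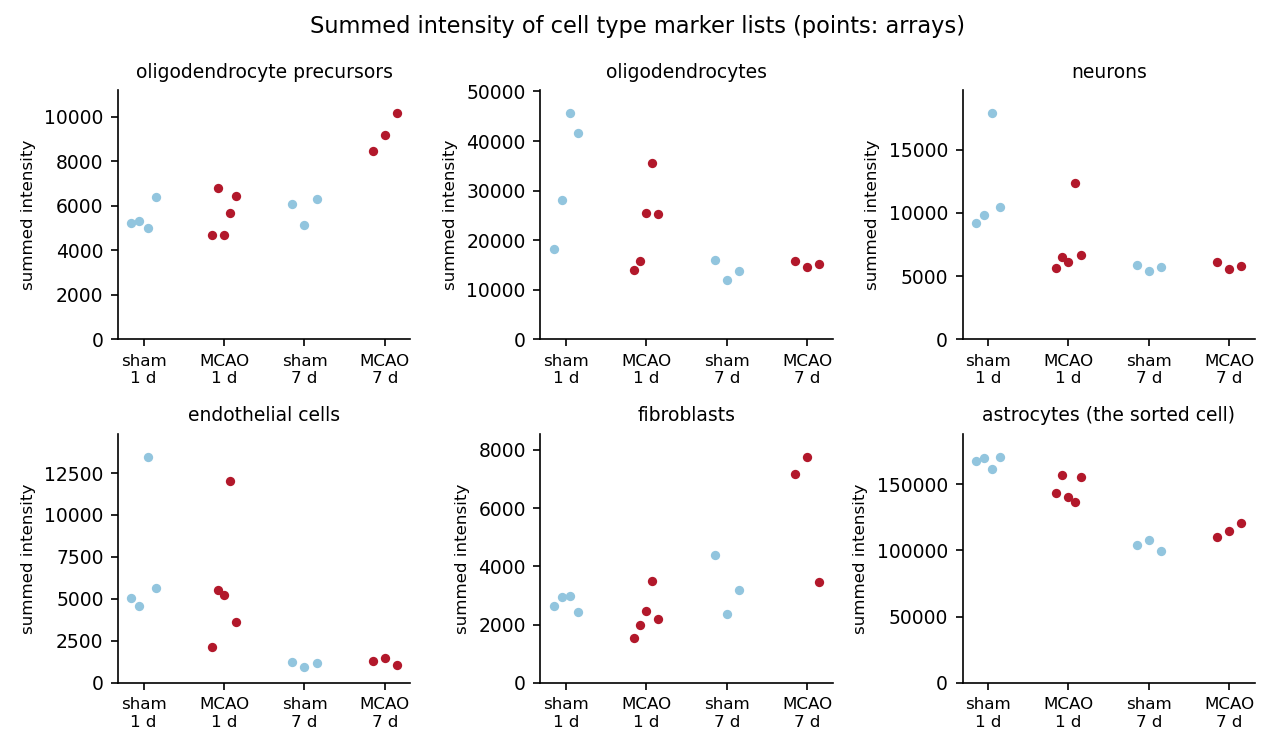
Summed linear intensity (vertical axes, starting at 0) of 6 marker lists in the 4 groups, 1 point per array. Oligodendrocyte precursor markers are highest on the 3 MCAO arrays of 7 days, and oligodendrocyte, neuronal and endothelial markers are higher and more scattered on arrays of 1 day.

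Extracellular matrix genes went both ways. Of 29 measured members 9 rose and 3 fell at 1 day (6.49% and 6.17% of all genes). At 7 days 1 was called, Matn4, and 0 were called in the difference, with medians of 0.42 and 0.48. When the 15 arrays were fitted alone, 4 were called lower and 7 higher in the difference (4.6% and 5.18% of all genes). The lower ones included the adhesion genes Cd44 (3.69 and 1.56) and Tnc, tenascin C (1.79 and -0.17). The higher ones included Tnr, tenascin R (-0.36 and 2.37), Hapln1, which links hyaluronan to proteoglycans (-2.31 and -0.18), and the collagen gene Col1a2 (-0.11 and 1.23), which is also a fibroblast marker.

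Of 33 cell cycle genes 1 rose at 1 day (6.49% of all genes), the cyclin Ccnd1 (2.21 and 1.67). At 7 days and in the difference 0 were called. The median was -0.01 at 1 day and 0.67 at 7 days, and 17 of 33 had MCAO arrays above sham arrays without overlap at 7 days (9.65% of all genes). With the 15 arrays alone 8 were called higher in the difference (5.18% of all genes), among them Rrm2, of nucleotide synthesis (-0.80 and 1.19), Ccnb2, a mitotic cyclin (-0.28 and 1.27), and Cdc20, an activator of anaphase (0.11 and 1.66). The replication helicase genes Mcm5 (0.91 and 0.77) and Mcm3 (0.50 and 0.45) had like values at both days. Oligodendrocyte precursor markers were higher on the same 3 arrays, and their part in these values was not tested.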

How the data were processed

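The authors' deposited table held 1 linear intensity per probe set and array, normalised with RMA per the submitters' processing notes (version not stated), as whole numbers from 9 to 35553. Log2 was taken of these deposited intensities. Of the probe sets with 1 symbol, the brightest on average across all 30 arrays stood for its gene, and genes at log2 5 or more on at least 3 arrays were kept (15726 of 18193). limma 3.58.1 in R 4.3.3 fitted 8 group means to the 30 arrays, with 22 residual and 4.55 prior degrees of freedom, and Benjamini-Hochberg adjustment over all genes of a contrast. Tests were 2-sided. SE and p-values rest on the variance pooled over all groups. The fit was tested on simulated data.

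Members and lists were chosen with earlier results of these data known. Named genes were up to 8 resolved rises and 6 resolved falls with the largest differences and no overlap at 1 day, persisting and late genes, up to 3 called members per list, called markers, and Gfap, Vim, Lcn2, Serpina3n and Aldh1l1. Other list members were named after their values were seen.

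Deviations from group means of arrays with the same number in their descriptions correlated with r = 0.234, 0.191, 0.5 and 0.164 at 1 day, so these were taken as pairs. Arrays of 1 day with different numbers gave r from -0.358 to 0.312, so these values do not settle that the arrays were paired. MCAO array 1 has no partner and carries no weight in that fit. At 7 days r was 0.375, 0.309 and 0.004, and no pairs were taken. Arrays of 7 days with different numbers gave r from -0.373 to 0.081, so these values do not settle a choice of pairing at 1 day only. Promoters are those of RefSeq for GRCm38.p6. Arrays have no depth, and their number limits the precision.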

Additional observations from a re-analysis of the deposited data

Results flagged for a closer look

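On sham array 3 of 1 day, 4 of the named genes stood far from the other sham arrays of that day. Lcn2 read 7.555 against 4.907 to 5.087 on the others, and Steap4 read 6.409 against 4.954 to 5.087. Serpina3n read 11.298 against 9.987 to 10.148, and Vim read 11.762 against 9.714 to 9.94. Of 52 groups of values tested 4 were that far out, all on this array. Chance alone gives about 1 in 20, but values of 1 array are not independent, so nothing follows from the count. Without that array 55 genes were called lower in the difference and 13 were called at 7 days, against 46 and 4 with it. It also stood apart beyond the named genes, with Osmr at 11.885 against 8.913 to 9.122 and Aspg at 10.719 against 7.109 to 7.248. Its endothelial, neuronal and ependymal marker sums (13480, 17880 and 33990) were the highest of the sham arrays of 1 day, while its precursor sum (5013) was the lowest.

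The stroke effect of 20 named genes differed between 1 and 7 days by the test of the difference itself. It was lower at 7 days on the log2 scale in Lcn2 (-5.58), Steap4 (-5.07), Sphk1 (-4.63), Hmga2 (-3.91), Hmox1 (-3.88), Lrg1 (-3.75), Srxn1 (-3.46), Clcf1 (-3.42), Fosl1 (-2.56), Adam12 (-2.48) and Plaur (-2.14). It was higher in Dhrs3 (2.23), Farp2 (2.09), Gria4 (1.89), C1ql1 (1.89), Hhatl (1.74), St8sia1 (1.66), Fbln1 (1.59), Hacd4 (1.41) and Tfdp2 (1.29).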

How the results depend on the processing

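Counts are given in the order lower and higher in the difference, resolved rises and resolved falls, unless named. The 20 named genes with a called difference kept its direction under every alternative run, but uncalled values near 0 did not all keep their sign. Several runs, such as the 15 arrays alone, change only the variance, the genes tested or the threshold. The difference of a gene is then the same by construction, so its direction could not turn in those runs. The uncalled differences of Vim and Gfap turned sign, as did uncalled 7-day effects of Aldh1l1, Hhatl, Srxn1, St8sia1 and Fbln1 under settings that kept all arrays. The fit on the 15 arrays alone gave 723, 814, 690 and 722, with quantile normalisation added 774, 576, 739 and 504, and array weights gave 1325, 1819, 1119 and 1590. Leaving LPS array 5 out of the model gave 95, 36, 95 and 32. The array set as a covariate gave 19 higher and 16 resolved falls. All arrays within each of the 4 groups were of the same set, so this covariate left every stroke effect and difference unchanged. It altered only the variance and cannot adjust for the brightness gap between the days. Keeping only genes between log2 6 and 12 in all 4 groups, which tests fewer genes, gave 12, 4, 12 and 4. An adjusted p under 0.01 gave 12, 1, 12 and 0.

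The replicate block gave 15, 2, 15 and 1 by title number and 12, 1, 12 and 0 by description number at both days. With description pairs at 1 day only it gave 22, 3, 22 and 2. Rises and falls at 1 day were 629 and 429 with the description block, 635 falls with the title block and 518 falls with the 1-day block. Each block left 2 genes called at 7 days and 0 persisting rises.

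At 1 day the 15 arrays alone gave 2373 rises and 2958 falls, quantile normalisation with them 2417 and 2754, array weights 2668 and 3493, an adjusted p under 0.01 gave 616 and 480, a 2-fold minimum 596 and 421, and the model without LPS array 5 gave 1541 falls.

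Genes called higher at 7 days numbered 166 with the 15 arrays alone, with and without quantile normalisation, 366 with array weights, 17 with robust trended variance or the array set as covariate, 14 with quantile normalisation, 13 with the filter at log2 6 and 7 with the mean of probe sets. They numbered 2 with median centring, no filter, an adjusted p under 0.01 or the genes between log2 6 and 12. Genes called lower at 7 days numbered 4 with the 15 arrays alone, 5 with quantile normalisation added and 159 with array weights.

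Persisting rises numbered 115 with the 15 arrays alone, 117 with quantile normalisation added and 217 with array weights. They numbered 8 with quantile normalisation, robust trended variance or the array set as covariate, 7 with the filter at log2 6, 1 with genes between log2 6 and 12, and 0 with median centring, no filter or an adjusted p under 0.01. Persisting falls numbered 2, 3 and 30 with the 15 arrays alone, quantile normalisation added and array weights. Late rises numbered 37, 34 and 92 in those 3 fits, 2 with quantile normalisation, the filter at log2 6, robust trended variance, the model without LPS array 5 or the array set as covariate, and 0 with genes between log2 6 and 12. Late falls numbered 60 with array weights. The cause of these shifts was not tested.

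Leaving out each array in turn gave 14 to 55 genes lower and 1 to 13 higher in the difference, 740 to 992 rises and 619 to 943 falls at 1 day, 2 to 13 rises and 0 falls at 7 days, 14 to 54 resolved rises, 0 to 11 resolved falls, 0 to 8 persisting rises, 0 persisting falls, 1 to 2 late rises and 0 late falls. Chosen after seeing the data were the 1-day block, quantile normalisation with the 15 arrays, LPS array 5 left out, the array set as covariate and the range between log2 6 and 12. With 3 arrays per group at 7 days and day bound to array brightness, a missing call there does not show that an early change had ended.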

Other observations

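Further resolved rises were picked out after their values were seen, and no group of genes was tested. Rrp12, of ribosome export, had effects of 1.77 at 1 day and -0.04 at 7 days, and its difference was called without any 1 of the 15 arrays and with the 1-day pairing (adjusted p = 0.0346). Thbd, thrombomodulin, had 3.29 and 0.50, and was called in 10 of the 15 fits that left out 1 array and with the pairing (adjusted p = 0.0346). The calls of the following 11 genes all ended with the pairing, at adjusted p from 0.051 for Mettl1 to 0.159 for Dhx37, and were kept in 1 to 10 of the 15 fits that left out 1 array. Nhp2, of small nucleolar particles, had effects of 1.8 and 0.21, Dis3, of the exosome, 1.44 and -0.09, Pop1, of ribonuclease P, 1.29 and -0.18, Dhx37 1.46 and 0.03, and Grwd1 1.37 and -0.05. The tRNA methyltransferase genes Mettl1 and Trmt61a had 1.53 and -0.06, and 1.74 and -0.16, and Mrps18b, of the mitochondrial ribosome, had 1.41 and -0.09. Procr, the protein C receptor, had 2.44 and 0.37, Ereg, a ligand of the EGF receptor, 2.19 and 0.27, and Tnfrsf12a, the receptor of TWEAK, 3.45 and 0.76.

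Stress and chemokine lists had 0 calls in the difference, against 0.356% of all genes. At 1 day 6.49% of all genes rose and 6.17% fell. Of 13 heat shock proteins and co-chaperones 6 rose at 1 day, with medians of 1.01 and 0.60, and of 16 genes of ATF4 and the unfolded protein response 6 rose, with 0.54 and 0.24. Within the latter Asns, of asparagine synthesis, had 3.44 and 1.44, while Atf3 had 1.92 and 1.79. Of 20 chemokines and cytokines 6 rose and 1 fell, Il18, and the neutrophil attractants Cxcl1 and Cxcl2 had 2.19 and 2.16, and 2.89 and 4.0. Gdf10, a TGF-beta family ligand, had an effect of -3.50 at 1 day, where it was called, and of -1.14 at 7 days. Of 15 hypoxia targets, Vegfa had -1.24 and -0.05, and of 23 respiratory chain subunits 1 fell at 1 day, Ndufs3 (6.17% of all genes fell), with list medians of -0.32 and -0.05. The Kruppel-like factors Klf5 and Klf6 rose at 1 day and had 3.91 and 1.41, and 1.67 and 1.02.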
